A study of Mus musculus with 18 samples.

Results

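Apolipoproteins are the protein components of lipoprotein particles, and the transcripts of 8 of their genes were followed here: Apoe, Apod, Apoa4, Apoh, Apom, Apob, Apoc1 and Apoa1. They were taken by symbol from the 24602 genes of the count table, and they were chosen by their measured levels and differences in these same libraries. Their levels and the differences between groups are therefore given as descriptions, with no p-values. The data are read counts per gene from RNA-seq of knock-in mice of strain 129S1/SvlmJ that carry the R388W substitution in Nup93, a scaffold protein of the nuclear pore. Nuclear RNA was sequenced from R388W homozygotes (Nuclear_Hom, Nup93 R388W/R388W), heterozygotes (Nuclear_Het, Nup93 R388W/+) and wild types (Nuclear_WT), and total RNA from the same 3 genotypes (Total_Hom, Total_Het and Total_WT), with 3 libraries in each of the 6 groups. The labels used here name no Cre driver, treatment or age, and they leave unsaid if libraries within a group are from different mice. P-values for other genes below therefore measure only the spread between libraries, which may be technical.

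Apoe, Apoc1, Apoa1 and Apoa4 belong to the exchangeable apolipoproteins, which move between particles. Apob is the non-exchangeable scaffold around which very low density lipoproteins, low density lipoproteins and chylomicrons are assembled. Apom and Apod are lipocalins that carry small lipids, and Apoh, also called beta-2-glycoprotein I, is a plasma protein that binds anionic phospholipids. Liver and intestine make most circulating apolipoproteins, while the kidney is known for synthesis of Apom in tubule cells and for the uptake of filtered apolipoproteins by megalin and cubilin in the proximal tubule.

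Depth was 17405493 to 23462056 counts per library. The deposited column of Total_WT replicate 1 held 200140709 counts, 10.2 times the mean of the other 17 libraries, and for 0 genes was it smaller than the 9 nuclear columns added together; that total was subtracted, which left 19034520 counts. Total_Hom replicate 2 stood apart from its group, with 73080 CPM (counts-per-million, the read count of a gene relative to a library size scaled by TMM factors) of the ribosomal precursor Rn45s, and leaving it out is among the alternatives in the closing section. Nup93 itself averaged 15.9 to 22.5 CPM over the groups, and a substitution allele is not checked by its level. The series text speaks of isolated podocytes and the labels only of mouse tissue. All 15 podocyte markers were detected in every group, at a summed 908 to 1206 CPM, beside 22870 to 55775 CPM for 18 proximal tubule markers. Xist, the RNA of the inactive X chromosome, ranged over 333 to 543 CPM in the Nuclear_Hom, Nuclear_Het and Total_WT libraries and over 0.340 to 1.67 CPM in the Nuclear_WT, Total_Hom and Total_Het libraries, where 4 Y-linked genes summed to 151 to 165 CPM. The nuclear and total libraries of each genotype are thus opposite in sex-linked state, and whether they came from mice of different sex or carry exchanged labels cannot be told apart here, which bears on every comparison with WT and every nuclear-to-total value. Sex-linked state likewise cannot be told apart from genotype in Hom or Het against WT, nor from fraction within a genotype. Hom against Het has the same Xist state on both sides within a fraction, high in nuclear RNA and low in total RNA. The 4 Y-linked genes nevertheless summed to 2.32 to 2.93 CPM in Nuclear_Het and 0.509 to 0.746 CPM in Nuclear_Hom, without overlap. The nuclear label was set beside 2 transcripts known to stay in the nucleus. Malat1 averaged 2081 CPM in Nuclear_Hom and 2143 CPM in Total_Hom, 2356 CPM in Nuclear_Het and 2021 CPM in Total_Het, and 1745 CPM in Nuclear_WT and 2312 CPM in Total_WT. Neat1 averaged 635 CPM in Nuclear_Hom and 604 CPM in Total_Hom, 657 CPM in Nuclear_Het and 528 CPM in Total_Het, and 579 CPM in Nuclear_WT and 634 CPM in Total_WT. Neither was higher in nuclear RNA in all 3 genotypes, so these levels do not verify the nuclear label, and nuclear-to-total values below compare the libraries as labelled. These are bulk samples, in which fewer cells of a type and less RNA per cell cannot be told apart.

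The promoter windows of the 4 members with the widest spread between groups among those with a window, apart from Apoa1, are shown so that the sequences around their starts stand beside the levels. A window was found for 7 of the 8 members; Apoc1 is named only. Each runs from 250 bases before to 50 bases after a RefSeq start (build GRCm38.p6), 5′ to 3′ on the strand of the gene. That start lies 136 bases from the GENCODE start for Apoe, 214 for Apod, 148 for Apoa4 and 4 for Apoh. The windows of Apoe, Apod and Apoa4 may thus be centred off the start in use. Apoe had 3 windows, of which the nearest was taken. Apoe lies on the minus strand at chr7:19699139-19699438, Apod on the minus strand at chr16:31314759-31315058, Apoa4 on the plus strand at chr9:46240594-46240893 and Apoh on the plus strand at chr11:108395047-108395346. Capitals mark matches, on either strand, to the motifs described after the sequences.
Apoe: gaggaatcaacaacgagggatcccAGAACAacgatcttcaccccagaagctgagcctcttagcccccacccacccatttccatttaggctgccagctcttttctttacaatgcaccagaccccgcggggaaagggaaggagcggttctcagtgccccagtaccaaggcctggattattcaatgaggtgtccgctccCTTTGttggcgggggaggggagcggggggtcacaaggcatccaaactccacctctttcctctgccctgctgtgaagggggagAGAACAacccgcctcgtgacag
Apod: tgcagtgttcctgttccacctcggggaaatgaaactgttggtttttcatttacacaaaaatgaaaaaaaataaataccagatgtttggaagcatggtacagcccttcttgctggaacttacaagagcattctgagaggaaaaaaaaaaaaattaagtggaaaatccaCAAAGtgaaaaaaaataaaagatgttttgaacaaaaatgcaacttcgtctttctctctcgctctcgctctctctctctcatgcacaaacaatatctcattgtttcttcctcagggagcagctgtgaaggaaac
Apoa4: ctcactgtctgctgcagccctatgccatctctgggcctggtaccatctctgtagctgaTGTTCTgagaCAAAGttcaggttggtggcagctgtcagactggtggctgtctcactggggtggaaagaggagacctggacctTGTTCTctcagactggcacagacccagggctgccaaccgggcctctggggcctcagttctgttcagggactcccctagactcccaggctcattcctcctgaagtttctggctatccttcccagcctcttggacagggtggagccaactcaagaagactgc
Apoh: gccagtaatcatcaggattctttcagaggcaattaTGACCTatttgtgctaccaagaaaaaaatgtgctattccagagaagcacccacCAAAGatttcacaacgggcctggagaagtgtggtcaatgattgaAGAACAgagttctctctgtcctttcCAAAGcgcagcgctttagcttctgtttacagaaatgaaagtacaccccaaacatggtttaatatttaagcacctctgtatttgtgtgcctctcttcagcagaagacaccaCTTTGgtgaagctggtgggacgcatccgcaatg

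The motifs were searched on both strands as exact letters. CAAAG, the core bound by HNF4, was found 3 times in the Apoh window and 1 time each in those of Apoe, Apod and Apoa4, and 54.0% of all 32817 mouse promoter windows of 300 bases hold it. TGTTCT, a half-site of the glucocorticoid and androgen receptors, was found 2 times each in the Apoe and Apoa4 windows and 1 time in the Apoh window, against 19.0% of all windows with at least 1. AGGTCA, the half-site of other nuclear receptors, was found 1 time in the Apoh window and is held by 16.3% of all windows. TATAAA (13.6% of all windows), GTTAAT (7.10%), TTCNNNGAA (8.29%) and the palindromic oestrogen response element (0.0701%) had no match in these 4 windows. The windows of Apoe and Apoa4 are G+C rich, at 57.7% and 57.3%, while those of Apoh and Apod hold 44.0% and 37.3%. A match of these letters describes the sequence and says nothing about binding.

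Per kilobase of the deposited gene length, Apoe was the most abundant of the 8, with a mean of 531 CPM per kilobase over the 18 libraries, above 99.4% of the genes with counts. Apom followed at 129 CPM per kilobase and Apob at 20.5 CPM per kilobase, spread over a gene length of 13909 bases. Apoh averaged 13.8, Apoa4 10.5, Apoc1 5.71, Apoa1 2.46 and Apod 2.41 CPM per kilobase. Apoe and Apob together supplied 90.3% of the summed CPM of the 8 genes in Nuclear_Hom, 93.6% in Nuclear_Het and 83.0% in Nuclear_WT, and 92.5% in Total_Hom, 77.2% in Total_Het and 88.0% in Total_WT. The low members rest on few reads: Apod had 11 counts and Apoa1 10 counts in their lowest libraries.

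**Figure D1:**
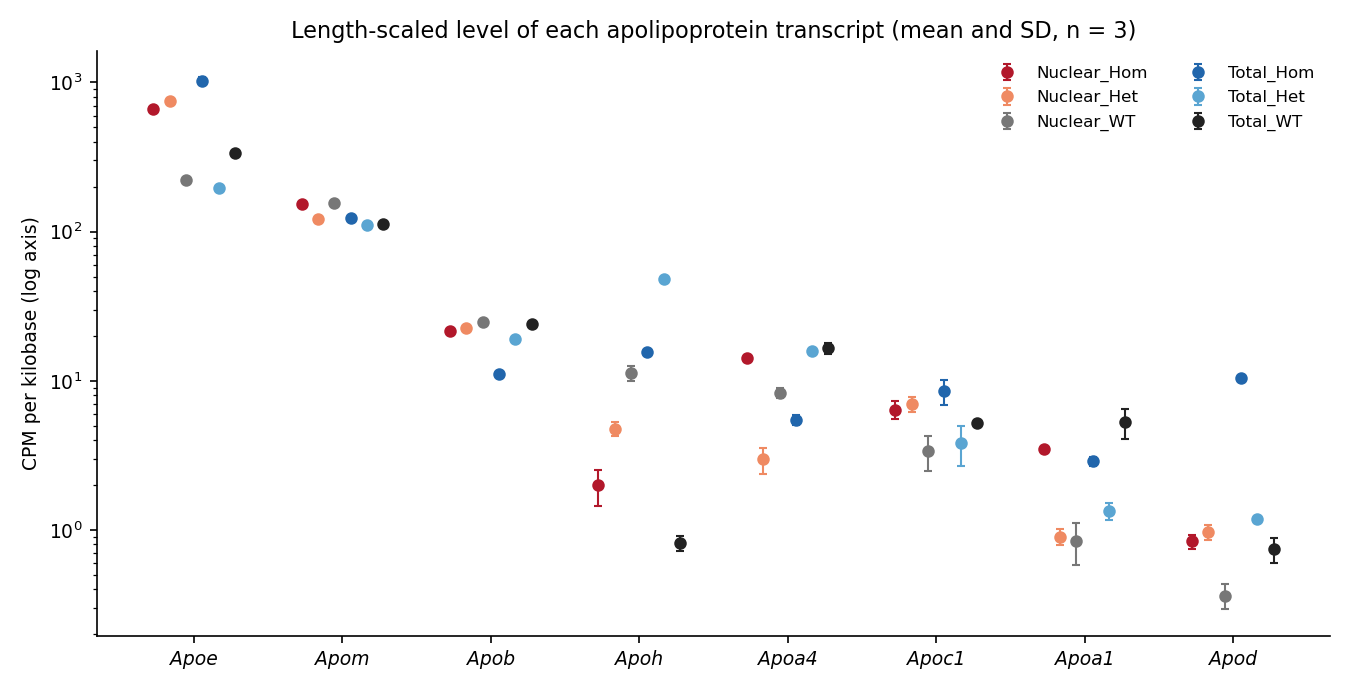
Mean CPM per kilobase of gene length (log axis) of each apolipoprotein gene in the 6 groups, with bars for the SD of 3 libraries. Apoe lies at the top with a mean of 531 over all libraries, Apom and Apob hold narrow ranges, and Apoh and Apod spread widely between groups.

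The 8 genes differed in how far their levels varied between groups. Apom had the narrowest range, its highest group mean being 1.40 times its lowest, followed by Apob at 2.21 times and Apoc1 at 2.51 times. The ratio was 5.26 for Apoe, 5.56 for Apoa4, 6.23 for Apoa1, 28.6 for Apod and 59.0 for Apoh. Within groups the mean coefficient of variation was 1.92% for Apob, 3.52% for Apom, 3.68% for Apoe and 17.4% for Apoc1, the noisiest member.

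**Figure D2:**
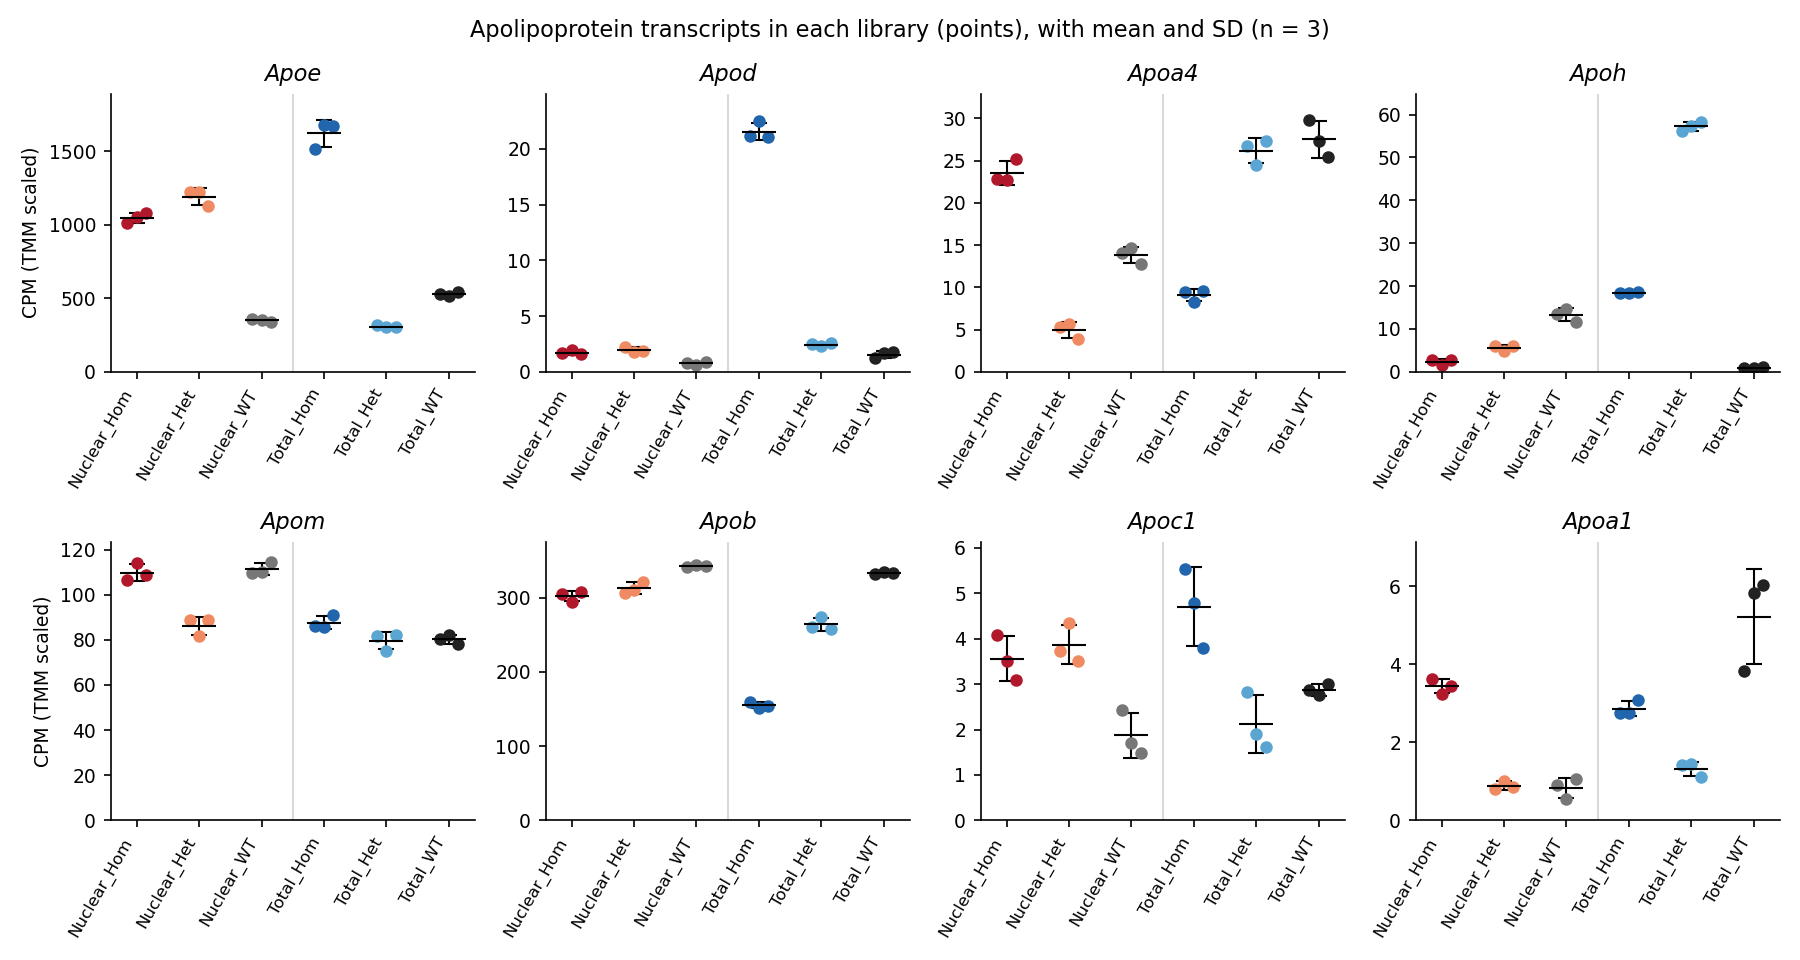
CPM of each apolipoprotein gene in every library (points) with group mean and SD (n = 3), nuclear groups left of total groups. Apod stands out in Total_Hom at 21.0 to 22.5 CPM, Apoh in Total_Het at 56.1 to 58.3 CPM, and Apom is nearly level across groups.

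Apoe, a ligand through which cells take up lipoprotein remnants, was about 3-fold higher in homozygotes than in wild types in both fractions. In nuclear RNA, Apoe had 1012, 1053 and 1078 CPM in Nuclear_Hom libraries, 1222, 1227 and 1129 CPM in Nuclear_Het libraries and 358, 354 and 341 CPM in Nuclear_WT libraries. In total RNA, it had 1518, 1683 and 1671 CPM in Total_Hom libraries, 322, 302 and 302 CPM in Total_Het libraries and 532, 519 and 546 CPM in Total_WT libraries. None of the groups overlapped with its neighbour in order, and the heterozygotes were at the high end in nuclear RNA but at the low end in total RNA. The log2 fold of Hom against WT was 1.58 ± 0.03 in nuclear RNA and 1.61 ± 0.05 in total RNA (SE of the fits, 3 libraries a group). Het against WT differed in direction between the fractions, at 1.78 ± 0.03 in nuclear RNA and -0.79 ± 0.05 in total RNA. Hom against Het, the contrast with the same Xist state on both sides, was -0.19 ± 0.03 in nuclear RNA and 2.40 ± 0.05 in total RNA. The summed CPM of 14 macrophage markers, a cell type that makes Apoe, was 272 to 284 in Nuclear_Hom, 746 to 781 in Nuclear_Het and 202 to 213 in Nuclear_WT, and 425 to 429 in Total_Hom, 432 to 438 in Total_Het and 466 to 475 in Total_WT, with all 14 detected in every group. In nuclear RNA, 11 of these markers were higher and 0 lower for Hom against WT, 13 higher and 0 lower for Het against WT and 0 higher and 13 lower for Hom against Het, where 54.3%, 64.6% and 43.2% of all genes passed. In total RNA 5 were higher and 1 lower in Hom against WT and 4 higher and 2 lower in Hom against Het, where 61.6% and 67.0% of all genes passed. In total Het against WT 2 were higher and 3 lower, with a median log2 fold of -0.01, where 61.1% of all genes passed. The summed CPM of 8 Schwann cell markers was 61.1 to 68.2 in Nuclear_Hom, 81.8 to 84.6 in Nuclear_Het and 54.8 to 58.5 in Nuclear_WT, and 76.6 to 83.7 in Total_Hom, 48.2 to 50.5 in Total_Het and 67.5 to 71.7 in Total_WT. It was thus lowest in Total_Het and Nuclear_WT, as Apoe was. The sum of the 18 proximal tubule markers was highest in those 2 groups, at 55775 and 48022 CPM. Slc34a1 was highest there too, at 4205 and 4779 CPM. Lrp2 was at 3530 and 3343 CPM there and highest in Total_WT, at 3854 CPM. For Het against WT, 12 of these markers were higher and 5 lower in total RNA, where 61.1% of all genes passed. In nuclear RNA 1 was higher and 16 lower, where 64.6% passed. The part of any of these cell types in the Apoe and Apoc1 values was not tested.

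**Figure D3:**
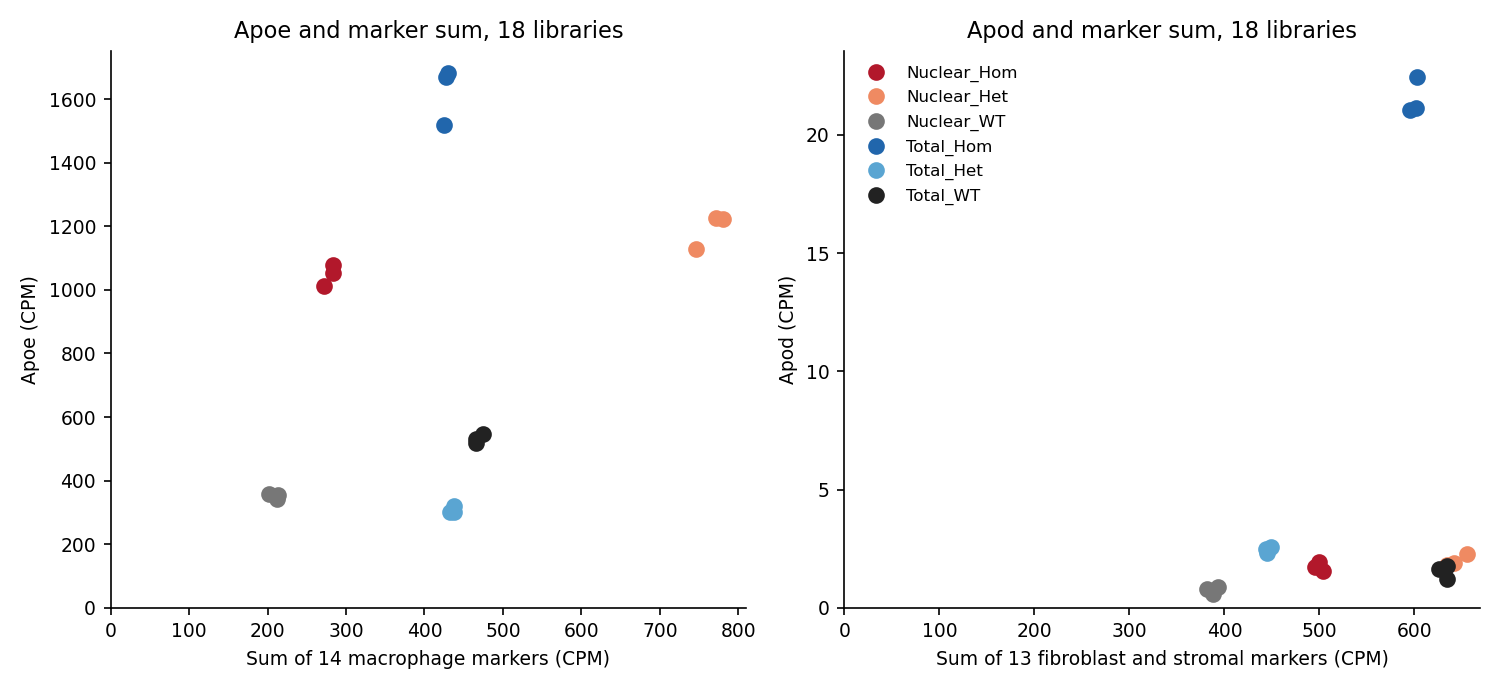
Left, CPM of Apoe against the summed CPM of 14 macrophage markers, and right, CPM of Apod against the summed CPM of 13 fibroblast and stromal markers, with a point for each of 18 libraries. Total_Hom libraries have the highest Apoe, 1518 to 1683 CPM, and the highest Apod, 21.0 to 22.5 CPM; the part of either cell type in these values was not tested.

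Apoc1, whose gene lies directly next to Apoe on chromosome 7 and whose protein inhibits lipoprotein lipase and cholesteryl ester transfer, had far fewer reads. Nuclear_Hom libraries had 4.07, 3.51 and 3.09 CPM of Apoc1, Nuclear_Het libraries 3.74, 4.35 and 3.51 CPM and Nuclear_WT libraries 2.43, 1.69 and 1.49 CPM. Total_Hom libraries had 5.53, 4.78 and 3.79 CPM, Total_Het libraries 2.83, 1.91 and 1.62 CPM and Total_WT libraries 2.87, 2.75 and 3.01 CPM. As for Apoe, both mutant groups lay above wild type in nuclear RNA and Total_Hom lay above the other total groups, but Total_Het overlapped with Total_WT. The log2 folds of Apoc1 were 0.91 ± 0.18 for Hom and 1.03 ± 0.18 for Het against WT in nuclear RNA. In total RNA they were 0.71 ± 0.16 for Hom and -0.43 ± 0.19 for Het against WT. The next genes in the same cluster were almost silent: Apoc2, the activator of lipoprotein lipase, had 3 counts in all over the 3 Nuclear_Het libraries and 0 in the other 15 libraries, and Apoc4 had 6 counts over the Nuclear_Het libraries, 2 over the Total_Hom libraries and 0 in the other 12.

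Apoa1, the main protein of high density lipoproteins and the acceptor of cholesterol exported by ABCA1, was low throughout. Nuclear_Hom libraries had 3.61, 3.25 and 3.45 CPM, Nuclear_Het libraries 0.804, 1.01 and 0.852 CPM and Nuclear_WT libraries 0.918, 0.546 and 1.05 CPM. Total_Hom libraries had 2.74, 2.76 and 3.09 CPM, Total_Het libraries 1.42, 1.44 and 1.12 CPM and Total_WT libraries 3.82, 5.82 and 6.02 CPM. In nuclear RNA the homozygotes stood alone above heterozygotes and wild types, which overlapped, whereas in total RNA the wild types were highest. The log2 fold of Hom against WT was 2.03 ± 0.23 in nuclear RNA and -0.87 ± 0.16 in total RNA. Hom against Het was positive in both fractions, at 1.94 ± 0.22 in nuclear RNA and 1.10 ± 0.22 in total RNA.

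Apoa4, a protein of chylomicrons and high density lipoproteins encoded in the same chromosome 9 cluster as Apoa1, was ordered differently. Nuclear_Hom libraries had 22.8, 22.7 and 25.2 CPM of Apoa4, Nuclear_Het libraries 5.30, 5.71 and 3.83 CPM and Nuclear_WT libraries 14.04, 14.7 and 12.7 CPM. Total_Hom libraries had 9.49, 8.28 and 9.61 CPM, Total_Het libraries 26.7, 24.5 and 27.4 CPM and Total_WT libraries 29.8, 27.4 and 25.4 CPM. The homozygotes were thus the highest genotype in nuclear RNA and the lowest in total RNA, where Total_Het and Total_WT overlapped. Hom against Het had a log2 fold of 2.23 ± 0.09 in nuclear RNA and -1.52 ± 0.08 in total RNA. Hom against WT was 0.77 ± 0.08 in nuclear RNA and -1.59 ± 0.08 in total RNA. Gene models on the opposite strand, Gm10680 and Gm47528, overlap Apoa4; the kit keeps strand, but the strand setting of the counting is not given in the sources used here, so reads of the 2 strands may not be separated.

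Apoc3, the inhibitor of lipoprotein lipase that lies between Apoa1 and Apoa4, followed neither neighbour. It averaged 17.2 ± 0.42 CPM in Nuclear_Hom, 10.4 ± 1.17 CPM in Nuclear_Het and 25.0 ± 1.80 CPM in Nuclear_WT, and 25.2 ± 0.72 CPM in Total_Hom, 38.1 ± 1.23 CPM in Total_Het and 13.7 ± 0.88 CPM in Total_WT (SD, n = 3). Apoa5, at the far end of the cluster, had 3 counts over the Nuclear_Hom libraries, 1 over the Total_WT libraries and 0 in the other 12.

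Apob, the scaffold of very low density lipoproteins and chylomicrons, differed little between genotypes in nuclear RNA and was about 2-fold lower in homozygotes in total RNA. In nuclear RNA it had 304, 295 and 307 CPM in Nuclear_Hom libraries, 306, 311 and 322 CPM in Nuclear_Het libraries and 342, 344 and 342 CPM in Nuclear_WT libraries. In total RNA it had 159, 152 and 154 CPM in Total_Hom libraries, 260.0, 274 and 258 CPM in Total_Het libraries and 332, 335 and 333 CPM in Total_WT libraries. The order Hom, Het, WT from low to high was the same in both fractions, without overlap in total RNA and with overlap of Nuclear_Hom and Nuclear_Het in nuclear RNA. The log2 folds in total RNA were -1.11 ± 0.03 for Hom and -0.34 ± 0.02 for Het against WT. In nuclear RNA they were -0.18 ± 0.03 for Hom and -0.12 ± 0.03 for Het against WT. With library totals alone the Het value changed sign, to 0.06, and the Hom value was -0.05 and no longer past the threshold. Mttp, which loads lipid onto Apob, averaged 29.6 CPM in Total_Hom, 39.8 CPM in Total_Het and 41.3 CPM in Total_WT.

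Apom, the lipocalin that carries sphingosine-1-phosphate on high density lipoproteins, was the steadiest member. Nuclear_Hom libraries had 107, 114 and 109 CPM, Nuclear_Het libraries 88.6, 81.6 and 88.6 CPM and Nuclear_WT libraries 109.6, 110.2 and 114 CPM. Total_Hom libraries had 86.2, 85.8 and 90.9 CPM, Total_Het libraries 81.8, 75.2 and 81.9 CPM and Total_WT libraries 80.3, 82.2 and 78.3 CPM. Nuclear_Het was the only nuclear group set apart, while Total_Het and Total_WT overlapped. The log2 folds ran from -0.36 ± 0.04 for nuclear Het against WT to 0.34 ± 0.04 for nuclear Hom against Het. Of the 18 proximal tubule markers, from the cells in which Apom is made in the kidney, 17 were higher and 0 lower in nuclear Hom against Het, and 3 were higher and 14 lower in total Hom against Het (43.2% and 67.0% of all genes passed); their part in the Apom values was not tested.

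Apod, a lipocalin that binds arachidonic acid and steroids and is known from glia and fibroblasts, was set apart in a single group. Nuclear_Hom libraries had 1.71, 1.93 and 1.57 CPM, Nuclear_Het libraries 2.27, 1.82 and 1.92 CPM and Nuclear_WT libraries 0.780, 0.601 and 0.882 CPM. Total_Hom libraries had 21.2, 22.5 and 21.0 CPM, Total_Het libraries 2.49, 2.31 and 2.55 CPM and Total_WT libraries 1.21, 1.66 and 1.75 CPM. Every library outside Total_Hom had at most 2.55 CPM. The log2 fold was 3.80 ± 0.12 for total Hom against WT and 3.13 ± 0.12 for total Hom against Het. Nuclear_Hom did not share this level, and Hom against Het in nuclear RNA was -0.21 ± 0.22, with overlapping groups. The summed CPM of 13 fibroblast and stromal markers, all detected in every group, was 595 to 602 in Total_Hom, 444 to 449 in Total_Het and 626 to 635 in Total_WT. Although this sum was higher in Total_Hom than in Total_Het, 5 of its markers were higher and 6 lower in that contrast, with a median log2 fold of -0.29. In total Hom against WT 2 were higher and 7 lower, with a median of -0.09. The sum of 8 Schwann cell markers was 76.6 to 83.7, 48.2 to 50.5 and 67.5 to 71.7 CPM in Total_Hom, Total_Het and Total_WT. Endothelial markers (10 genes) summed to 1585 to 1587 CPM in Total_Hom, 1053 to 1058 CPM in Total_Het and 1383 to 1406 CPM in Total_WT. Adipocyte markers (10 genes) summed to 473 to 491 CPM in Total_Hom, 377 to 391 CPM in Total_Het and 336 to 349 CPM in Total_WT. The endothelial and adipocyte sums were highest of all 6 groups in Total_Hom, as Apod was. More adipocyte markers were lower than higher there, however. In total Hom against Het 3 were higher and 6 lower, with a median log2 fold of -0.23. In total Hom against WT 3 were higher and 4 lower, with a median of -0.12. Of the endothelial markers, 9 were higher and 0 lower against Het, and 6 higher and 2 lower against WT. Of all genes, 67.0% passed in total Hom against Het and 61.6% in total Hom against WT. The part of any of these cell types in the Apod values was not tested.

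Apoh had the widest range of the 8 genes. In nuclear RNA, Apoh had 2.68, 1.62 and 2.77 CPM in Nuclear_Hom libraries, 6.06, 4.95 and 5.96 CPM in Nuclear_Het libraries and 13.5, 14.8 and 11.7 CPM in Nuclear_WT libraries. In total RNA, it had 18.4, 18.3 and 18.7 CPM in Total_Hom libraries, 56.1, 57.3 and 58.3 CPM in Total_Het libraries and 0.855, 0.986 and 1.07 CPM in Total_WT libraries. None of the 6 groups overlapped with the next, and wild types were the highest genotype in nuclear RNA and the lowest in total RNA. The log2 fold of Hom against WT was -2.51 ± 0.13 in nuclear RNA and 4.24 ± 0.13 in total RNA. Het against WT was -1.22 ± 0.11 in nuclear RNA and 5.87 ± 0.10 in total RNA, and the total RNA values were 2.16 for Hom and 3.78 for Het when Total_WT replicate 1 was used as deposited. Hom against Het was negative in both fractions, at -1.28 ± 0.15 in nuclear RNA and -1.63 ± 0.06 in total RNA. Apoh was also the only member whose libraries divided by Xist: it ranged over 0.855 to 6.06 CPM in the 3 groups with high Xist and over 11.7 to 58.3 CPM in the 3 groups with low Xist, whereas those ranges overlapped for the other 7 members. Of the 15410 genes tested over all libraries, 6.98% divided by Xist in this way in either direction and 4.33% were lower in the high Xist groups. Apoc3, outside the 8, divided in the same direction, with 9.37 to 17.7 CPM in the high Xist groups and 22.9 to 39.3 CPM in the low Xist groups. Among the genes of the related lists named in this report, Cd36 and Nr1h4 were also lower in the high Xist groups. Lrp8, Stab2, Tm6sf2, Abca1, Pnpla3 and Srebf1 were higher in them. The part of sex-linked state in the values of Apoh or of these genes was not tested. Apoh overlaps Prkca on the opposite strand, so the strand limit given for Apoa4 applies here too.

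Apoh, Apoa1 and Apoa4 are best known from liver or intestine, and the hepatocyte list was set beside them. Its 15 markers summed to 296 to 309 CPM in Nuclear_Hom, 233 to 237 CPM in Nuclear_Het and 1249 to 1272 CPM in Nuclear_WT, and to 758 to 782 CPM in Total_Hom, 1779 to 1811 CPM in Total_Het and 153 to 159 CPM in Total_WT. Serpina3k was at 0 in all 3 nuclear groups, Ahsg and Tat in Nuclear_Het, Cps1 in Nuclear_Het and Nuclear_WT, Fgb in Nuclear_WT and Tat also in Total_Het. This sum was lowest in Total_WT and highest in Total_Het, as Apoh was. Cyp2e1, an enzyme that metabolises ethanol, made up most of this sum in every group except Total_WT. It was at 202 CPM in Nuclear_Hom, 162 CPM in Nuclear_Het and 1131 CPM in Nuclear_WT. In total RNA it was at 654 CPM in Total_Hom, 1557 CPM in Total_Het and 71.1 CPM in Total_WT. Alb, the defining transcript of hepatocytes, averaged 21.6 CPM in Nuclear_Hom, 15.7 CPM in Nuclear_Het and 4.998 CPM in Nuclear_WT, and 2.93 CPM in Total_Hom, 5.39 CPM in Total_Het and 13.1 CPM in Total_WT. Its order across the 6 groups differed from that of Apoh, which was lowest where Alb was 13.1 CPM and highest where Alb was 5.39 CPM. The proximal tubule markers summed to 30345 CPM in Nuclear_Hom, 22870 CPM in Nuclear_Het and 48022 CPM in Nuclear_WT, and to 23643 CPM in Total_Hom, 55775 CPM in Total_Het and 28197 CPM in Total_WT. Their sum was thus highest in Total_Het too, although Lrp2 was highest in Total_WT, at 3854 CPM. In total Het against WT 12 of the 18 markers were higher and 5 lower, where 61.1% of all genes passed. Their median log2 fold was 0.20, so the sum does not stand for the typical marker. The part of hepatocyte or tubule RNA in these values was not tested.

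Between genotypes in nuclear RNA, 7 of the 8 members passed the adjusted threshold of 0.05 (edgeR's quasi-likelihood test with Benjamini-Hochberg adjustment over all genes tested) in Hom against WT, 5 higher and 2 lower; of the 15112 genes tested, 54.3% passed, 26.5% higher and 27.8% lower. In nuclear Het against WT 7 passed, 3 higher and 4 lower, where 64.6% of all genes passed, 32.8% higher and 31.7% lower. In nuclear Hom against Het 5 passed, 3 higher and 2 lower, where 43.2% of all genes passed, 21.4% higher and 21.8% lower. In total RNA all 8 passed in Hom against WT, 5 higher and 3 lower; of the 15051 genes tested, 61.6% passed, 30.6% higher and 31.0% lower. In total Het against WT 6 passed, 2 higher and 4 lower, where 61.1% of all genes passed, 30.9% higher and 30.3% lower. In total Hom against Het all 8 passed, 5 higher and 3 lower, where 67.0% of all genes passed, 32.9% higher and 34.1% lower. The members' counts are read as description only, since the list was drawn up with these contrasts known. Hom against WT and Het against WT share their WT libraries within a fraction. With library totals alone as scaling, the share of called genes that were higher was 73.9% in place of 48.8% in nuclear Hom against WT, 75.9% in place of 50.9% in nuclear Het against WT and 33.5% in place of 49.6% in nuclear Hom against Het. In total RNA it was 24.5% in place of 50.5% in Het against WT and 68.4% in place of 49.1% in Hom against Het. The median log2 fold of the 8 members in nuclear RNA was 0.84 in Hom against WT, -0.01 in Het against WT and -0.09 in Hom against Het, beside medians of all genes of 0.02, 0.02 and 0.00. In total RNA the members' medians in the same contrasts were 0.42, -0.20 and 0.62, beside 0.00, -0.01 and 0.01 over all genes.

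**Figure D4:**
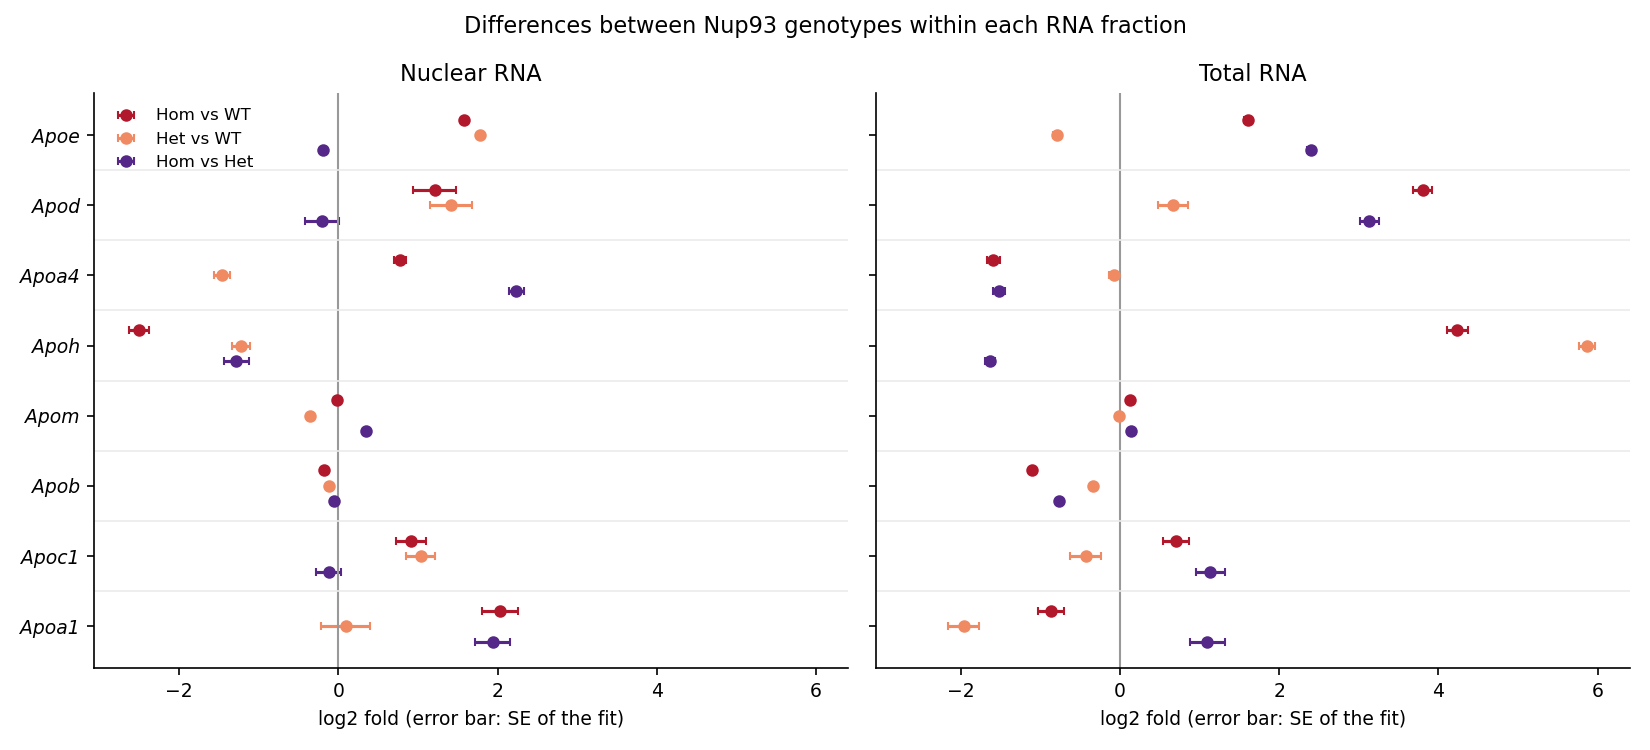
Log2 fold of each apolipoprotein gene between genotypes in nuclear RNA (left) and total RNA (right), with bars for the SE of the fit. Apoh runs from -2.51 in nuclear Hom against WT to 5.87 in total Het against WT, and Apom stays between -0.36 and 0.34.

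Hom against Het, the genotype contrast in which Xist state is the same on both sides, shares no library between the fractions. Apoa1 was higher and Apoh lower in homozygotes in both fractions, and Apom was higher in both by 0.34 ± 0.04 in nuclear RNA and 0.14 ± 0.03 in total RNA. Apoa4 was higher in nuclear RNA and lower in total RNA. Apoe, Apod and Apoc1 were higher in total RNA, by log2 folds of 2.40, 3.13 and 1.14, with nuclear values of -0.19, -0.21 and -0.12. Apob was lower in total RNA by a log2 fold of -0.77 ± 0.03, with overlapping groups in nuclear RNA.

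**Figure D5:**
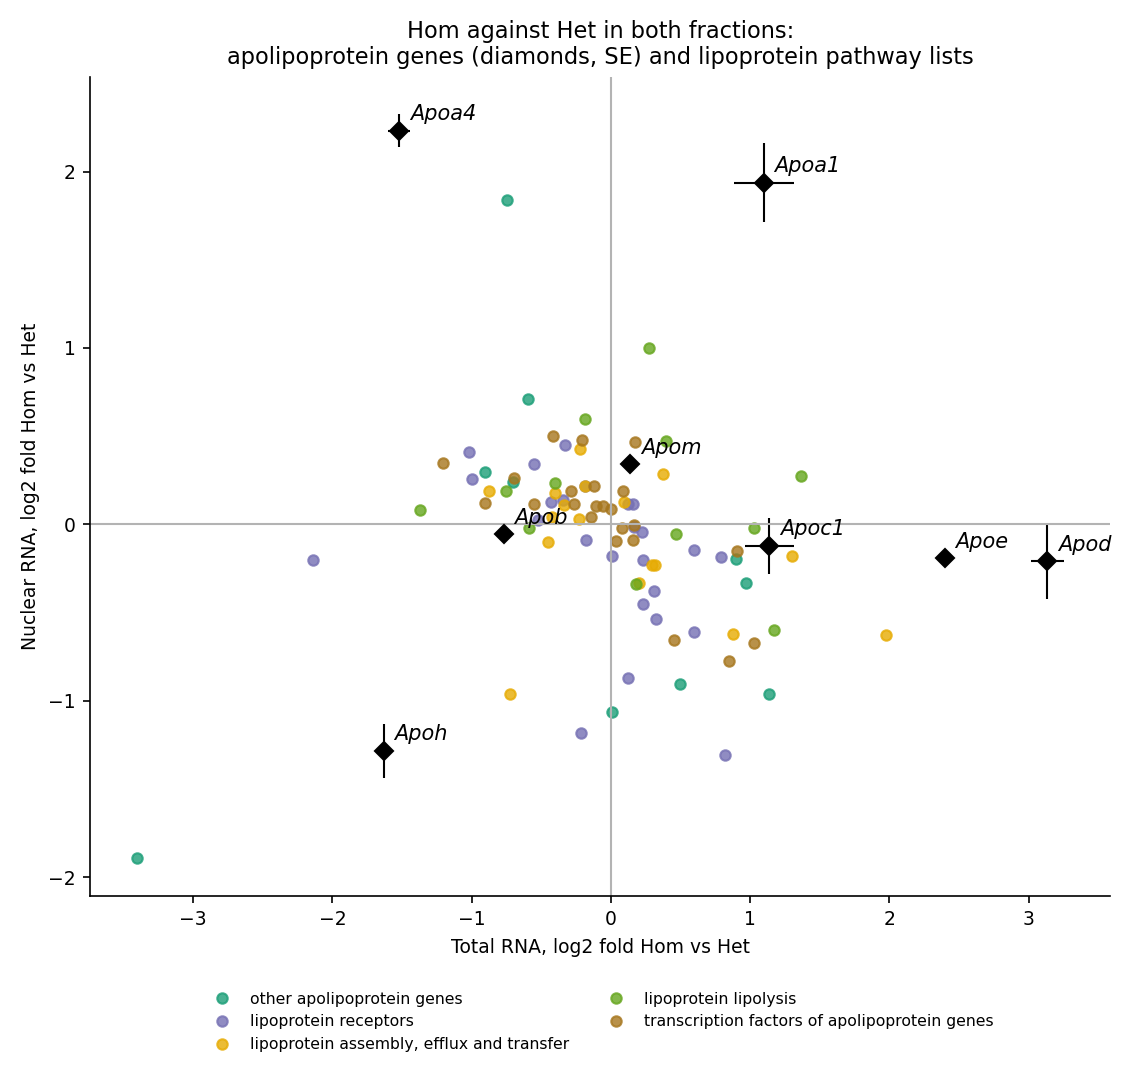
Log2 fold of Hom against Het in nuclear RNA (vertical axis) and total RNA (horizontal axis) for the 8 apolipoprotein genes (diamonds, with SE) and for the genes of 5 related lists (circles). Apoa4 lies at upper left (2.23 nuclear, -1.52 total), Apoh at lower left (-1.28, -1.63), Apoa1 at upper right (1.94, 1.10), and Apoe and Apod at the far right.

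Nuclear RNA was also set against total RNA within each genotype. In wild types 7 members passed the threshold, 2 higher and 5 lower in nuclear RNA; of the 15410 genes tested, 61.7% passed, 30.9% higher and 30.8% lower. In heterozygotes 6 passed, 4 higher and 2 lower, where 63.6% of all genes passed, 33.4% higher and 30.2% lower. In homozygotes 7 passed, 3 higher and 4 lower, where 60.3% of all genes passed, 30.5% higher and 29.8% lower. With library totals alone, 25.4% of called genes in place of 50.1% were higher in nuclear RNA of wild types and 77.3% in place of 52.5% in heterozygotes. Apom was higher in nuclear RNA in every genotype, with log2 folds of 0.33 ± 0.03 in Hom, 0.12 ± 0.04 in Het, where the groups overlapped, and 0.46 ± 0.04 in WT. Apod was lower in nuclear RNA in Hom, at -3.62 ± 0.13, and in WT, at -1.03 ± 0.25, and its value of -0.28 ± 0.19 in Het was not past the threshold. For Apoh the nuclear to total difference was -2.98 ± 0.11 in Hom, -3.33 ± 0.08 in Het and 3.76 ± 0.15 in WT. For Apoe it was -0.63 ± 0.04 in Hom, 1.95 ± 0.05 in Het and -0.61 ± 0.05 in WT. Apob was nearly level in WT at 0.03 ± 0.03 and higher in nuclear RNA in Het (0.25 ± 0.03) and Hom (0.96 ± 0.03). With library totals alone its WT value was -0.13 and past the threshold.

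Comparing these nuclear-to-total ratios between genotypes, 6 members passed for Hom against WT, 3 higher and 3 lower, where 56.1% of all genes passed, 28.4% higher and 27.7% lower. For Hom against Het 7 passed, 4 higher and 3 lower, where 63.6% of all genes passed, 31.7% higher and 31.9% lower. With library totals alone, 70.4% in place of 50.7% of called genes were higher for Hom against WT and 29.1% in place of 49.8% for Hom against Het. The ratio of Apoe in Hom relative to WT was -0.02 ± 0.06 on the log2 scale. The ratio was -6.74 ± 0.18 for Apoh and -2.59 ± 0.33 for Apod in Hom relative to WT, and 2.90 ± 0.28 for Apoa1, 2.37 ± 0.11 for Apoa4 and 0.93 ± 0.04 for Apob. Relative to Het, the ratio in Hom was 3.76 ± 0.12 for Apoa4 and -3.34 ± 0.24 for Apod.

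Genes that act on the same particles were counted from lists that were also drawn up with earlier results of these data known. The genes named from these lists were picked for large changes past the threshold. Their adjusted p-values follow from that choice and are no independent support. Of 25 lipoprotein receptor genes, 9 rose and 12 fell in nuclear Hom against Het, and 11 rose and 9 fell in total Hom against Het, with list medians of -0.09 and 0.12. Over all genes tested, 43.2% passed in nuclear Hom against Het, with a median of 0.00, and 67.0% in total Hom against Het, with a median of 0.01, and the counts of each list below stand beside these shares. Cd36, the scavenger receptor that takes up oxidised lipoproteins and fatty acids, fell in total Hom against Het by a log2 fold of -2.14 ± 0.02 (adjusted p = 3.4e-126, edgeR's quasi-likelihood test, here and in the list values that follow). Trem2, a receptor of macrophages and microglia that binds Apoe, fell by -1.31 ± 0.15 (adjusted p = 5.6e-12) in nuclear Hom against Het and rose by 0.82 ± 0.15 (adjusted p = 5.3e-07) in total Hom against Het. Lrp8, a receptor for Apoe and reelin, rose in nuclear Hom against WT by 1.44 ± 0.12 (adjusted p = 2.4e-19) and fell in total Hom against WT by -1.31 ± 0.12 (adjusted p = 2.8e-20).

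Of 17 tested genes of lipoprotein assembly, efflux and transfer, 6 rose and 6 fell in nuclear Hom against Het, and 7 rose and 8 fell in total Hom against Het, with medians of 0.03 and -0.19. Abca1, which loads cholesterol onto Apoa1 and Apoe, fell in nuclear Hom against Het by -0.62 ± 0.04 (adjusted p = 1.4e-25) and rose in total Hom against Het by 0.88 ± 0.04 (adjusted p = 1.9e-44). Abcg1, which exports cholesterol to high density lipoproteins, rose in total Hom against Het by 1.30 ± 0.06 (adjusted p = 2.5e-41). Of 12 lipolysis genes, 5 rose and 1 fell in nuclear Hom against Het, and 6 rose and 5 fell in total Hom against Het, with medians of 0.13 and 0.23. Angptl4, an inhibitor of lipoprotein lipase, rose by 0.998 ± 0.043 (adjusted p = 3.3e-36) in nuclear Hom against Het.

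Of the transcription factors known to act on apolipoprotein genes, 23 were tested in nuclear RNA, where 12 rose and 5 fell in Hom against Het, and 24 in total RNA, where 9 rose and 10 fell, with medians of 0.10 and -0.03. Srebf1, the regulator of lipid synthesis genes, fell in nuclear Hom against Het by -0.77 ± 0.04 (adjusted p = 9.9e-35). Esr1, the oestrogen receptor, fell in total Hom against Het by -1.21 ± 0.08 (adjusted p = 6.7e-28). Of the other apolipoprotein genes, 12 of 24 were tested in nuclear RNA, with 5 higher and 6 lower in Hom against Het, and 11 in total RNA, with 4 higher and 4 lower, and with medians of -0.26 and 0.01. Apol11b, of the apolipoprotein L family, fell in total Hom against Het by -3.41 ± 0.32 (adjusted p = 4e-19), at a mean of 0.251 CPM in Total_Hom, 2.71 CPM in Total_Het and 4.18 CPM in Total_WT.

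For each member the 3 genes with the most similar profile were found by Pearson's r of log2(CPM + 0.5) over the 18 libraries, among those averaging 5 CPM or more. The libraries of a group share genotype, fraction and sex-linked state, so these values describe 6 group levels and carry no p-value. Apoe was most like Rps13 (r = 0.993), Zfp53 (0.986) and Rps4x (0.979); Rps13 and Rps4x encode ribosomal proteins, and Rps13 averaged 231 CPM in Total_Hom, 150 CPM in Total_Het and 173 CPM in Total_WT. Zfp53 was also the second most similar gene to Apoc1 (r = 0.906), between Rrp1b (0.907) and Cdkn1a (0.904). Apod was most like Grrp1 (0.974), Zbtb16 (0.974) and Gpc3 (0.970), of which Gpc3, a cell surface proteoglycan, averaged 142 CPM in Total_Hom, 55.1 CPM in Total_Het and 49.5 CPM in Total_WT. Apoh was most like Ugt2a3, a glucuronosyltransferase (0.978), Cblc (0.978) and Azgp1 (0.974), and Ugt2a3 averaged 14.3 CPM in Total_Hom, 47.2 CPM in Total_Het and 0.809 CPM in Total_WT. Apoa4 was most like Sema5a (0.951), Agmat (0.940) and Tmem86a (0.923), and Apoa1 like Fgf9 (0.955), C1qtnf2 (0.951) and Arhgap29 (0.930). Apom was most like Fam102a (0.947), Acaa1b (0.943) and Slc25a33 (0.923), and Apob like Ppm1h (0.969), Dap (0.966) and Zfyve16 (0.965).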

How the data were processed

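Per the labels' protocols, nuclear and total RNA was extracted in TRIzol and libraries were prepared with a stranded KAPA kit for mRNA. The submitters' processing notes list build mm9 and the tools featureCounts, STAR 2.5.2b, DESeq2 and CASAVA; the annotation and strand setting are not given in the sources used here. The authors deposited raw, unnormalised counts per gene symbol with gene lengths. Groups came from sample names and genotype labels. For Total_WT replicate 1 the sum of the 9 nuclear columns was subtracted; relative to sampling noise, its median chi-square to the other Total_WT libraries was 5.44 and 5.41 as deposited, 1.47 and 1.33 after it, and 1.49 between replicates 2 and 3. Counts were fitted with edgeR 4.0.16 under R 4.3.3 (TMM, filterByExpr, robust glmQLFit, glmQLFTest, Benjamini-Hochberg), 9 libraries a fit for genotypes within a fraction and 18 for fractions and ratios; all 8 members passed the filter. The biological coefficient of variation was 3.05% (nuclear), 3.90% (total) and 3.54% (all). CPM used TMM sizes of all 18 libraries. The script was tested on simulated counts. Alternatives were DESeq2 1.42.0, RLE factors, library totals alone, no filter, at least 5 CPM, a replicate block, other library sets, each library left out, and the deposited column. The members and gene lists were chosen with earlier results of these data known. Named list genes were up to 4 per list and comparison with the largest change past the threshold, non-overlapping groups and an average of 1 CPM or more; the text gives a selection of these, chosen after their values were seen, and Mttp, Apoc2, Apoc4 and Apoa5 were added as partners or neighbours of members. Promoter windows are from RefSeq, using the window nearest to the GENCODE start. Counts carry no molecular identifiers, and the SE of the fits covers counting error and the spread between libraries, which may be technical. Results for some genes of the lists are not reported here.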

Additional observations from a re-analysis of the deposited data

Results flagged for a closer look

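Several results differed between the fractions: under the same genotype contrast, every library of the mutant group lay on one side of the other genotype in nuclear RNA and on the opposite side in total RNA. Values are the nuclear log2 fold minus the total log2 fold. Among the apolipoprotein genes this held in Hom against WT for Apoh (-6.75), Apoa1 (2.89) and Apoa4 (2.36), in Het against WT for Apoh (-7.09) and Apoe (2.56), and in Hom against Het for Apoa4 (3.75) and Apoe (-2.59). These are 3, 2 and 2 of the 8 genes, or 37.5%, 25.0% and 25.0%, and of the 14858 genes tested in both fractions 20.2%, 41.1% and 25.6% did the same. The nuclear-to-total ratio in the report is past the threshold for each of the genes named here for Hom against WT and for Hom against Het, in that contrast, which their choice by opposite directions leads to, so no p is given; the ratio of Het against WT was not tested. Xist state differs between the nuclear and total libraries of every genotype, so fraction and sex-linked state cannot be told apart in any of these values.

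Genes of the related lists did the same. In Hom against WT the values were 3.86 for Pnpla3, 3.63 for Stab2, 2.75 for Lrp8, 1.26 for Tm6sf2, -1.40 for Apoc3, -1.67 for Apold1 and -2.17 for Nr1h4. In Hom against Het they were 1.20 for Apool, -1.50 for Abca1, -1.71 for Foxa1 and -2.12 for Trem2. In Het against WT the values were 3.74 for Angptl8, 3.18 for Lrp8, 2.67 for Srebf1, 2.54 for Abca1, 2.21 for Abcg1, 1.35 for Tm6sf2, -0.85 for Apool, -2.51 for Nr1h4, -2.71 for Apoc3, -2.87 for Angptl4, -2.92 for Esr1 and -4.75 for Cd36. No test of these differences is given, since the genes were picked for opposite directions and would pass it by that choice.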

How the results depend on the processing

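Under the alternatives, 491 counts of genes or members past the threshold stayed within 1.5 times the reported count and 1 did not: with a mean of at least 5 CPM, 4 members passed in nuclear Hom against WT in place of 7, as Apod, Apoc1 and Apoa1 were no longer tested. Of 1287 member folds under an alternative, 1194 moved by less than the replicate spread, 90 moved by more and 3 changed sign, all with library totals alone: Apob in nuclear Het against WT (0.059) and the ratio of Apom in Hom against WT (0.0057) and in Hom against Het (-0.0063). Library totals alone moved the median log2 fold of all genes to 0.14 in nuclear Hom against WT, 0.20 in nuclear Het against WT, -0.19 in total Het against WT and 0.16 in total Hom against Het. Members crossed the threshold in 45 of the 1287 cases, 13 of them Apoc1: its total Het against WT value of -0.43 lost it with DESeq2, without the filter, with the deposited column and without any Total_WT replicate or Total_Het replicate 2 or 3 (-0.48 to -0.27), and its Hom nuclear against total value of -0.40 with DESeq2 and the deposited column, and without Nuclear_Hom replicate 2 (-0.38) or 3 (-0.32) or Total_Hom replicate 1 (-0.27). Without Total_Het replicate 2, Apom in Het nuclear against total (0.08) lost it; Apob in nuclear Hom against Het passed without Nuclear_Het replicate 1 (-0.08) or Nuclear_Hom replicate 3 (-0.07). Using Total_WT replicate 1 as deposited gave Apoh 1.65 in WT nuclear against total and -4.63 in the ratio of Hom against WT, and Apol11b 0.013 in total Het against WT; the deposited column holds the nuclear counts by construction. Same-numbered libraries did not deviate together, with correlations of -0.07 to 0.07 over 21 pairs of groups, so the numbers do not pair them. Some of the 21 are the same pair taken again in another comparison. Each library was closest to its own number in 4 of them, among which Nuclear_Hom with Total_Hom recurs. With the replicate block 8242 genes passed in nuclear Hom against WT in place of 8213, and 7 members as before. The block changed no member's call in any comparison. Depth limits Apod, Apoa1 and Apoc1, whose lowest libraries held 11, 10 and 26 counts.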
